A study of Mus musculus with 18 samples.

Results

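Oncofetal genes are active in the fetal liver, silent or nearly so in the adult organ, and switched on again in a part of liver cancers. The 10 such genes described here, out of 28442 in the deposited table, were chosen by symbol as established markers of hepatocellular carcinoma (HCC), the main primary cancer of the liver: Afp, Gpc3, Golm1, Spp1, Mdk, Peg10, Lin28b, Igf2bp1, Igf2bp2 and Igf2bp3. Their levels were compared between 12 advanced tumors and 6 non-tumoral livers of Alb-R26Met mice, and between the tumors themselves. In this model a Cre recombinase driven by the albumin promoter (Alb-Cre) removes a stop cassette in front of a conditional mouse-human chimeric Met transgene at the Rosa26 locus, which slightly raises wild-type MET, a receptor tyrosine kinase, in hepatocytes. The livers carry the transgene as well and came from mice that had not developed tumors, so both groups share the alleles and there is no group without the transgene. All mice were males of a C57BL/6JRj by 129S2/SvPasOrlRj cross, aged 52 to 71 weeks for livers (median 56.5) and 49 to 72 weeks for tumors (median 65). There were 17 mice behind the 18 samples, as tumors 11 and 12 grew in the same animal. Tags stand in the sample names, whose meaning is not given in the sources used here: E19 marks 7 tumors and 2 livers, and E20 the remaining 5 tumors and 4 livers.

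AFP (alpha-fetoprotein) is the fetal relative of albumin, secreted by the yolk sac and fetal hepatocytes, and the classic serum marker of HCC. GPC3 (glypican 3) is a heparan sulfate proteoglycan anchored at the cell surface, GOLM1 (also known as GP73) a type II membrane protein of the Golgi that can be cleaved and shed, SPP1 (osteopontin) a secreted phosphoprotein that binds integrins and CD44, and MDK (midkine) a secreted heparin-binding growth factor. PEG10 is an imprinted, retrotransposon-derived protein. LIN28B and the IGF2BP family are RNA-binding proteins of fetal tissues: LIN28B blocks the maturation of let-7 microRNAs, and IGF2BP1, IGF2BP2 and IGF2BP3 bind and stabilize messenger RNAs such as that of Igf2.

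Values are TPM (shares of all transcripts, corrected for gene length, that add up to 1000000) that the authors rounded to whole numbers, so 0 stands for any level that rounds to 0. Totals ran from 835144 to 907513 per sample, and since the reads behind a TPM are not known, its counting error is not known either. Siglece took 82.86% of the total of tumor 2 and between 17.86% and 53.41% of the other samples. Siglece encodes a sialic acid receptor of leukocytes, and whether these reads belong to it was not tested, yet every TPM is a share of a total that holds them. Tumor 2 had 8718 genes above 0 against 11508 to 13819 in the rest. Values were therefore also divided by a scaling factor per sample ("scaled TPM"). After scaling, 1 TPM of the deposited table equals 5.14 in tumor 2 and between 0.703 and 1.27 in the other samples, so low values of tumor 2 are coarse. All 10 hepatocyte markers were above 0 in every sample, with a summed scaled TPM of 36566 to 76808 in tumors and 42012 to 58243 in livers, and Apoa1 rose while Cyp2e1, Ass1 and Tat fell. Much of that sum was Alb, with a mean of 35720 in tumors and 23586 in livers, and the median log2 difference of the 10 markers was -0.91. Met itself was 2.23 ± 0.19 (SE) higher in tumors on the log2 scale (limma adjusted p = 3.56e-08), and whether reads of the chimeric transgene are counted there is not given.

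Of the 10 members, Afp, Gpc3, Golm1 and Spp1 were expressed at measurable levels, and each was higher in tumors. The other 6 never exceeded 2 TPM in any sample. Among all 11708 genes tested, 9.77% were called higher in tumors and 9.28% lower (limma adjusted p under 0.05), and the median log2 difference was -0.06. A tested gene needed a scaled TPM of at least 1 in at least 6 samples. Gpc3, listed at 0 in every liver, and Afp, above 0 in 1 liver, passed this filter through tumors, so their direction is no separate result. Golm1 and Spp1 were above 0 in every liver. Spp1 was at 4.72 scaled TPM or more in each liver, but Golm1 stood at 0.790 in liver 6 and so also needed tumors to pass. The same holds for any other gene below 1 in a liver.

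**Figure D1:**
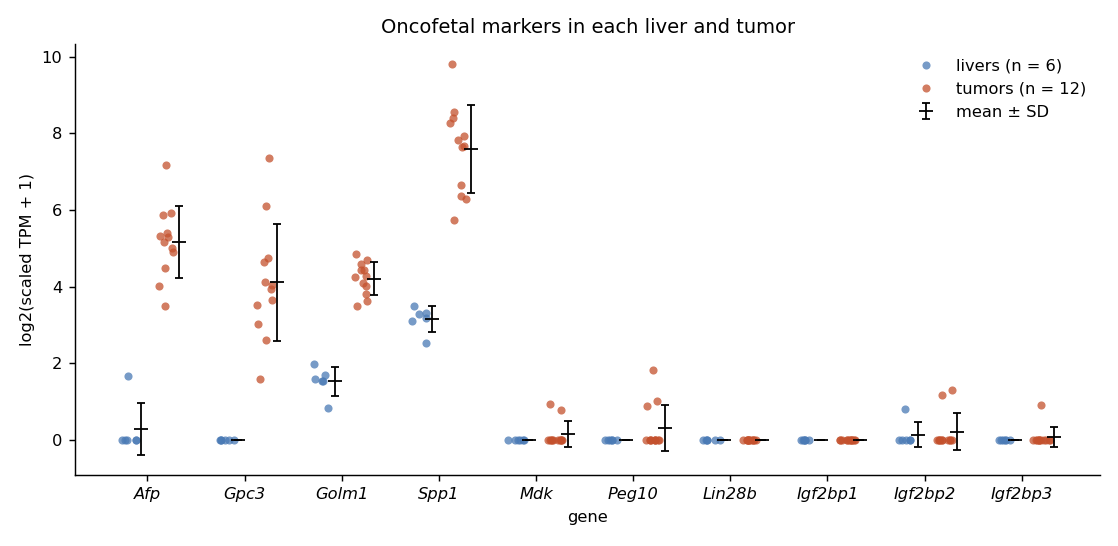
Level of the 10 members in each of 6 livers (blue) and 12 tumors (orange), as log2 of scaled TPM plus 1 on the vertical axis, with bars for the mean and SD of each group. Afp, Gpc3, Golm1 and Spp1 lie higher in all 12 tumors than in any liver, whereas Lin28b and Igf2bp1 are listed at 0 in all 18 samples.

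The stretches before the transcription start sites of Afp, Gpc3 and Spp1 are shown because these are the 3 members with the highest rank among genes that rose. They are the 250 bases upstream of the gene start in RefSeq on GRCm38.p6, written 5′ to 3′ on the strand of the gene. Letters are in lower case, with TATAAA, the letters of the TATA box motif, in capitals, searched on both strands. Whether a match acts as a TATA box was not tested.
Afp, plus strand, chr5:90490464-90490713: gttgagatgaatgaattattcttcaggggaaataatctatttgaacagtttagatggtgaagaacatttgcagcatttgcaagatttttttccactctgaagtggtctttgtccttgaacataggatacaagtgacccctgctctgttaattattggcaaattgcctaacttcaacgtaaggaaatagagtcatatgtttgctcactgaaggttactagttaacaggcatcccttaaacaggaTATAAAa
Spp1, plus strand, chr5:104434861-104435110: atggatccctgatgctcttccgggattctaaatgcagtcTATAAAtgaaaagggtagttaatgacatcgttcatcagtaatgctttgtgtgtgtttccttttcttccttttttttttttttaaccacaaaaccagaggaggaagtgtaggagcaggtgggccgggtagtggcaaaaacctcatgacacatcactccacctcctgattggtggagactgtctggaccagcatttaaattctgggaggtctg
Gpc3, minus strand, chrX:52613975-52614224: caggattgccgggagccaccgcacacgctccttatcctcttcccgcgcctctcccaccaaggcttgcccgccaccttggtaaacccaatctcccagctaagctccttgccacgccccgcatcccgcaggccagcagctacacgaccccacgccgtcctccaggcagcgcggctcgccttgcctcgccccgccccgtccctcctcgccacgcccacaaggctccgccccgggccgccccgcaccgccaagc

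In the Afp stretch TATAAA begins at position -7, counting back from -1 at the base before the annotated start. The Spp1 stretch holds it farther away, at position -211, and the Gpc3 stretch does not hold it. Its stretch is of another composition, with 71.6% G or C and 25 CpG dinucleotides, against 36% and 1 CpG for Afp and 43.6% and 3 for Spp1. The median of the 32841 stretches of the same length in the RefSeq table was 52.4% G or C, and 12.4% of them held TATAAA. The AP-1 site, TGANTCA, also searched on both strands, was found in 6.75% of all stretches and in none of the members. In all, 7 of the 10 members matched an entry of the promoter table. Golm1, whose stretch is not printed and in which an annotated exon begins, had 65.6% G or C with a match to TATAAA, on either strand, at position -185. Igf2bp2 and Igf2bp3, both at 2 TPM or below here, had 77.2% and 60.4% G or C, and Lin28b had 39.2%. A match is a description of letters and no measurement of binding.

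Afp (Entrez 11576, chr5:90490714-90508907) went from near absence to a clear signal. Its deposited TPM in tumors ran from 2 through a median of 40 to 164, while 5 of 6 livers are listed at 0 and liver 1 at 3. Tumor 10 was the highest and tumor 2 the lowest, and tumor 2 lay below liver 1 before scaling. On the scaled values the tumors ran from 10.3 to 143 with a mean of 43.3 ± 34.7 (SD, n = 12), the only liver above 0 stood at 2.20, and the groups did not overlap. The log2 difference was 4.89 ± 0.39 (SE; limma adjusted p = 2.34e-08), rank 9 among the 1144 genes that rose. That size depends on the pseudocount of 1, because most livers are at 0, and it became 7.69 with a pseudocount of 0.1. Even so, Afp transcripts stayed far below those of albumin, with a tumor median of 36.5 scaled TPM for Afp and 37024 for Alb.

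Gpc3 (Entrez 14734, chrX:52272426-52613974) is listed at 0 in all 6 livers and above 0 in all 12 tumors. Deposited TPM in tumors were 2 at the lowest (tumor 4), 16.5 at the median and 186 at the highest (tumor 10), so the groups did not overlap with or without scaling. Tumor 9 followed at 80 TPM, and the remaining tumors lay at 20 TPM or below. The scaled mean was 30.2 ± 44.9 (SD, n = 12), a spread larger than the mean. No fold change is given against a group at 0. The limma adjusted p was 2.53e-05, for a gene that entered the fit through tumors alone. Across 33 settings the largest adjusted p was 0.0487, from the 9 samples of tag E19, with 2 livers.

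Golm1 (Entrez 105348, chr13:59634996-59675784) was detected in every liver, as was Spp1, and varied less among tumors than the other 3. Livers held 1, 2 and 4 TPM at the lowest, the median and the highest, and tumors 2, 21 and 26. All tumors but tumor 2 lay above the highest liver in the deposited values, and all 12 did after scaling (10.3 to 27.9 against 0.790 to 2.93). The log2 difference was 2.69 ± 0.20 (SE; limma adjusted p = 1.01e-08), rank 86 among the genes that rose. Exons of Golm1 share 1297 bases with Naa35 on the opposite strand, and whether the quantification used strand is not given. Naa35, which encodes a subunit of an N-terminal acetyltransferase, had a log2 difference of 0.20 ± 0.19 (SE; adjusted p = 0.52).

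Spp1 (Entrez 20750, chr5:104435111-104441053) was the most abundant member in both groups. Livers held 5 TPM at the lowest, 8 at the median and 14 at the highest, and tumors 60, 226.5 and 716. Every tumor was above every liver in deposited and scaled values alike, and tumor 11 stood at the top. Scaled TPM averaged 8.02 ± 1.87 (SD, n = 6) over livers and 259 ± 230 (SD, n = 12) over tumors, and the log2 difference was 4.45 ± 0.44 (SE; limma adjusted p = 3.8e-07), rank 12 among the genes that rose. An annotated transcript of uncertain coding status, Gm42793, shares 309 exonic bases with Spp1 on the same strand and was not analysed here.

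Every tumor was above every liver on scaled values for Golm1 and Spp1, as for Afp and Gpc3 with their livers at or near 0, and 2.18% of all genes tested showed the same. On deposited values Spp1 and Gpc3 showed it, and 0.444% of all genes. In 33 settings, among them each sample left out, both tags alone, age or tag as a covariate and no scaling, the 4 genes were called higher each time.

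The RNA-binding members and Peg10 gave almost no signal. Lin28b (chromosome 10) and Igf2bp1 (chromosome 11) are listed at 0 in every sample. Igf2bp3 (chromosome 6) reached 1 TPM in tumor 10 alone. Igf2bp2 (chromosome 16) was listed at 2 TPM in tumor 1, 1 in tumor 11 and 1 in liver 1. Peg10 (chromosome 6) was at 2 TPM in tumor 11 and 1 in tumors 4 and 12, and Mdk (chromosome 2) at 1 in tumors 1 and 6, both at 0 in every liver. None of the 6 could be tested with the filter. Without it 8 members entered the fit and the same 4 were called. A value of 0 here does not exclude expression below the rounding limit.

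Tumors differed strongly in how much Gpc3, Spp1 and Afp they carried, and less in Golm1. Between the lowest and the highest tumor, scaled TPM differed 80.7-fold for Gpc3, 17.3-fold for Spp1, 13.9-fold for Afp and 2.71-fold for Golm1. For Gpc3, Afp and Golm1 the lowest tumor held 2 TPM before scaling, so these folds rest on a coarse value. On the log2 scale the SD among tumors was 1.52 for Gpc3, 1.16 for Spp1, 0.95 for Afp and 0.42 for Golm1, beside 0.38 for Golm1 and 0.34 for Spp1 among livers. Tumor 10 led for both Afp (143 scaled TPM) and Gpc3 (162), yet had 13.1 for Golm1, the third lowest, and 77.5 for Spp1, the second lowest. Tumor 11 led for Spp1 (907) and Golm1 (27.9) but was second lowest for Gpc3 (5.07). Tumor 4 was second lowest for Afp (15.1) and lowest for Gpc3 (2.01), with Golm1 at 23.1, the third highest. The 2 tumors of 1 mouse, 11 and 12, stood at 907 and 226 for Spp1 and at 5.07 and 14.4 for Gpc3. Each tumor was sequenced once, so neighbors in these orders cannot be told apart by a test.

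**Figure D2:**
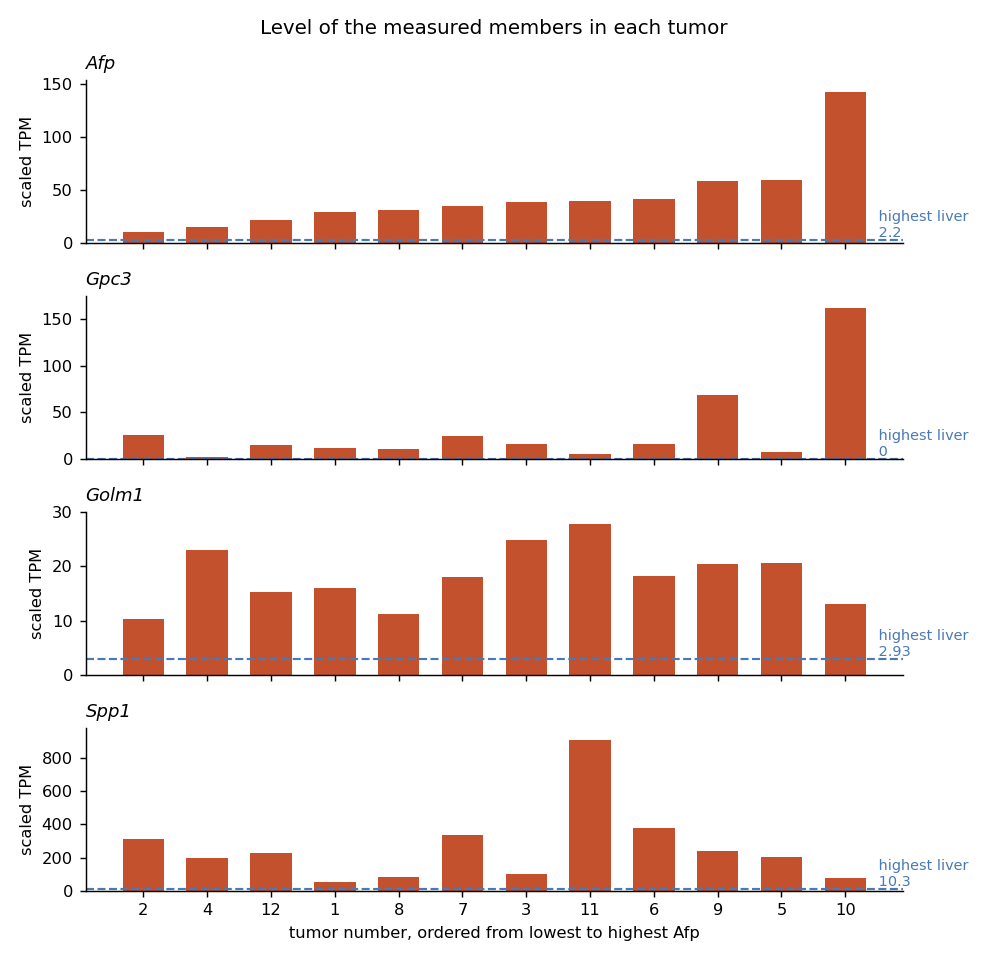
Scaled TPM of Afp, Gpc3, Golm1 and Spp1 in the 12 tumors, 1 panel per gene, with tumors ordered from lowest to highest Afp on the horizontal axis and a dashed line at the highest liver. Tumor 10 has the tallest bars for Afp (143) and Gpc3 (162), and tumor 11 for Golm1 (27.9) and Spp1 (907).

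No correlation between the 6 pairs of these genes passed adjustment across the 12 tumors (log2 scaled values, two-sided, 100000 permutations). Afp and Gpc3 came nearest, with Pearson's r = 0.57 (p = 0.0544, adjusted p = 0.326) and Spearman's rho = 0.27 (p = 0.39, adjusted p = 0.585). This relation rested on single tumors in both directions: r was 0.78 without tumor 2 (adjusted p = 0.041), 0.22 without tumor 10, and 0.55 without both, the 2 tumors farthest from the median of Afp. Among the 7 tumors of tag E19 r was 0.82, with values centered within tags it was 0.61 (adjusted p = 0.108), and 5 tumors of tag E20 are too few for a value. Gpc3 and Golm1 had r = -0.43 (p = 0.166, adjusted p = 0.408; rho = -0.45, p = 0.146), which was -0.20 without tumors 4 and 10, -0.77 in tumors of tag E19, -0.63 with values centered within tags (p = 0.027, adjusted p = 0.108) and 0.15 on deposited values. Golm1 and Spp1 had r = 0.40 (p = 0.204, adjusted p = 0.408; rho = 0.28, p = 0.379), which was 0.53 without tumors 2 and 8. The other 3 pairs lay between -0.25 and 0.16. Afp and Golm1, at r = 0.16 on scaled values, reached 0.73 on deposited values, where tumor 2 is low for both, and had -0.69 in tumors of tag E19 and -0.19 without tumor 2.

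No relation with age passed for the 4 genes across tumors. The largest coefficient was that of Gpc3, r = 0.46 (permutation p = 0.133, adjusted p = 0.532 over 4 genes; rho = 0.52, p = 0.0837), and it was 0.41 without the 2 tumors farthest from the median age. Between tags, Golm1 was 0.54 lower on the log2 scale in the 5 E20 tumors (mean 3.90) than in the 7 E19 tumors (mean 4.44), with an exact permutation p of 0.0278 over 792 assignments and an adjusted p of 0.111. Afp had a mean of 4.65 in E20 and 5.54 in E19 tumors (exact permutation p = 0.122, adjusted p = 0.245). A difference between tags in the tumor against liver effect was called for none of the 4 (limma interaction, adjusted p of 0.97 to 0.99). That interaction called 0% of the 11708 genes, with 348 at an unadjusted p under 0.05.

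Bulk RNA cannot tell apart fewer cells of a type and less RNA per cell, so marker genes of other cells and of dividing cells were set beside the 4 members, as the mean log2 scaled value of each marker list. Of 32 relations across the 12 tumors, 2 passed adjustment, both of Afp. For proliferation genes the tumors fell into separate sets: tumors 5, 9 and 10 scored 2.22 to 2.36 and the other 9 tumors 0.92 to 1.38. The same 3 tumors held the 3 highest Afp levels, and over all 12 r was 0.78 (permutation p = 0.00149, adjusted p = 0.0312; rho = 0.78, p = 0.0046). It was 0.85 on deposited values, 0.84 without tumor 2 and 0.63 without the 2 tumors farthest from the median of the score. Within the 9 other tumors r was 0.51 (exact permutation p = 0.153; rho = 0.48, p = 0.194). The summed proliferation genes were 17.1 to 79.1 scaled TPM in tumors and 1.46 to 7.03 in livers, but of the 11 genes tested, 5, such as Mki67 and Ccna2, are listed at 0 in every liver and 3 were above 0 in 1 liver, so they passed the filter through tumors. Rrm2, a subunit of ribonucleotide reductase above 0 in every sample, rose by 1.40 ± 0.34 (SE; limma adjusted p = 0.0063). Its lowest liver stood at 0.732 scaled TPM, so Rrm2 also needed tumors to pass. With endothelial markers Afp ran in the opposite direction, r = -0.81 (permutation p = 0.00195, adjusted p = 0.0312; rho = -0.70, p = 0.0151), and r was -0.76 without tumors 2 and 10. The endothelial relation depended on scaling, since r was 0.29 on deposited values, while without tumor 2 it was -0.77 with an adjusted p of 0.0817. Of 9 endothelial markers Pecam1 and Cdh5 rose, and the sum of all 9 was 45.3 to 262 scaled TPM in tumors, highest in tumor 2, and 67.4 to 140 in livers. With values centered within tags, neither relation of Afp passed, though the coefficients stayed near those of uncentered values, at 0.73 for proliferation and -0.74 for endothelial markers (adjusted p = 0.0638 for each). Relations of Afp with 3 more lists had an adjusted p of 0.0581 each. With stellate cell markers r was 0.70 (permutation p = 0.0109; rho = 0.69, p = 0.0172), and 0.64 without the 2 tumors farthest from the median of the score. With mast cell and neutrophil markers it was 0.75 (permutation p = 0.00623; rho = 0.58, p = 0.0481), and 0.24 without such tumors. The lymphocyte score was above 0 in tumors 5 and 10 alone. With hepatocyte markers r was -0.69 (permutation p = 0.0206, adjusted p = 0.0943; rho = -0.38, p = 0.227), -0.04 without the 2 farthest tumors, and 0.26 on deposited values. With macrophage markers r was 0.47 (permutation p = 0.121, adjusted p = 0.323; rho = 0.61, p = 0.0389). This r was 0.68 without the 2 farthest tumors, 0.34 without tumor 2 and 0.76 on deposited values (permutation test, adjusted p = 0.0477). Tumor 10, the highest in Afp, stood apart in several lists, with a hepatocyte score of 8.37 against 10.1 to 11.2 in the other tumors, the lowest endothelial sum and the highest sums of macrophage, lymphocyte and mast cell and neutrophil markers. Its macrophage score, in contrast to the sum, was 3.24 and below the 4.04 of tumor 5. Of 10 stellate cell markers the collagens Col1a1, Col1a2 and Col3a1 rose and Des, Lrat and Dcn fell. Col1a1 and Col1a2, both at 0.945 scaled TPM in their lowest liver, needed tumors to pass the filter. Lymphocyte markers were too low to test in all 9 cases, summing to at most 7.84 scaled TPM, and neither of the 2 tested of mast cells and neutrophils was called. The part of these cells in the levels of Afp was not tested.

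**Figure D3:**
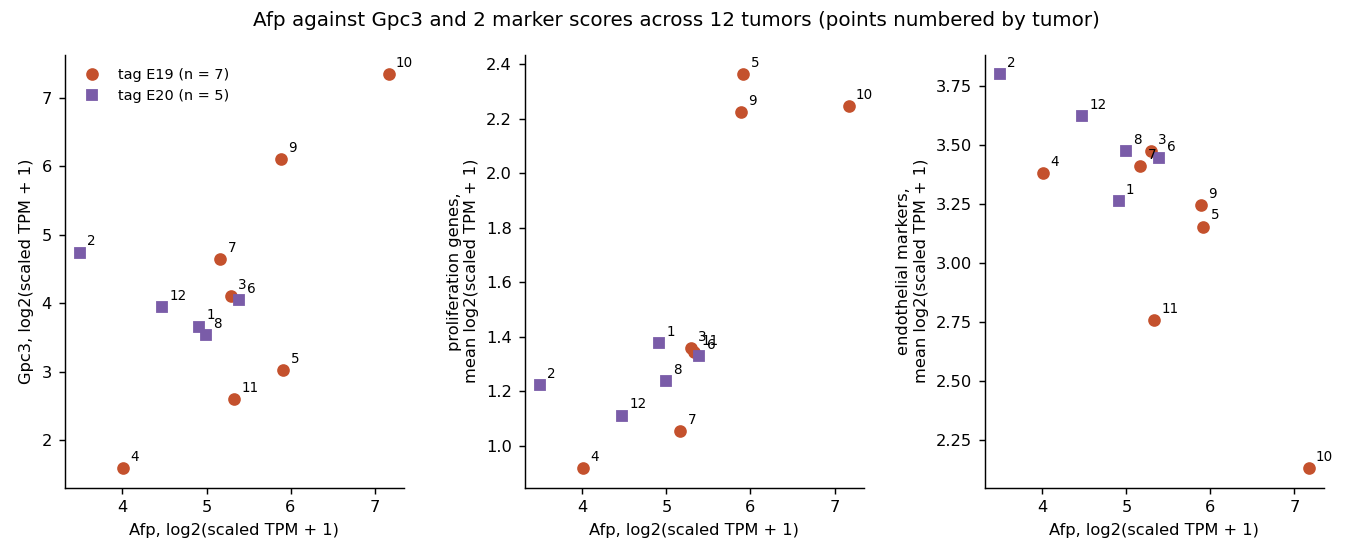
Each point is 1 of 12 tumors, numbered, with circles for tag E19 and squares for E20; the horizontal axis is Afp and the vertical axes are Gpc3, the proliferation score and the endothelial score, all as log2 of scaled TPM plus 1. Tumors 5, 9 and 10 stand apart at 2.22 to 2.36 in the proliferation score, tumor 10 is at the lower right of the endothelial panel, and tumor 2 lies off the rise of Gpc3 with Afp.

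For Spp1, which cholangiocytes and macrophages also make, the markers of those cells were of interest. The summed cholangiocyte markers were 55.9 to 220 scaled TPM in tumors and 8.69 to 15.96 in livers. Most of that came from Tspan8, a tetraspanin (log2 difference 6.36 ± 0.27 SE, limma adjusted p = 1.36e-12). Tspan8 was above 0 in 1 liver and passed the filter through tumors. The defining keratins Krt19 and Krt7 were near 0 in both groups and Cftr and Cldn4 at 0 throughout. Spp1 and the cholangiocyte score had r = 0.70 across tumors (permutation p = 0.00971, adjusted p = 0.0581; rho = 0.52, p = 0.0898), and r was 0.45 without the 2 tumors farthest from the median of the score. None of 13 macrophage markers rose, and Clec4f, Marco and Gpnmb fell. The sum of all 13 was 61.7 to 309 in tumors and 139 to 402 in livers, and r of the macrophage score with Spp1 was -0.20 (permutation p = 0.525, adjusted p = 0.731; rho = -0.24, p = 0.458). The part of these cells in the level of Spp1 was not tested.

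Relatives of the members moved to different degrees, and they are given beside the 9.77% of all genes tested that rose and the 9.28% that fell. In the albumin family, 4 genes of which all were tested, Afm (afamin, a vitamin E binding protein) rose by 1.39 ± 0.22 (SE; limma adjusted p = 1.28e-04) beside Afp. Alb had 0.57 (adjusted p = 0.104) and Gc, the vitamin D binding protein, 0.50 (adjusted p = 0.14). Among 6 glypicans, 3 of 4 tested rose: Gpc3, Gpc1 by 2.29 ± 0.41 (SE; adjusted p = 5.1e-04) and Gpc6 by 1.70 ± 0.28 (SE; adjusted p = 2.15e-04). Gpc1 and Gpc6, at 0.939 and 0.732 scaled TPM in their lowest livers, also needed tumors to pass the filter. Gpc4 was well expressed in both groups, with a mean of 63.8 scaled TPM in tumors and 49.8 in livers (log2 difference 0.38, adjusted p = 0.0908), and Gpc2 and Gpc5 are listed at 0. Golm2, the close relative of Golm1, rose by 2.38 ± 0.24 (SE; adjusted p = 6.59e-07), from a mean of 0.446 scaled TPM in livers to 6.52 in tumors, with every tumor above every liver. Golm2 was above 0 in 3 livers, so it passed the filter through tumors and its direction is no separate result.

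Receptors of the secreted members are given beside the shares over all genes tested, of which 9.77% were higher and 9.28% lower in tumors. Of 13 genes of the midkine family and its receptors, 11 were tested, 2 rose and 1 fell, with a median log2 difference of -0.02. Itga6, an integrin chain of the laminin receptors, rose by 2.92 ± 0.29 (SE; limma adjusted p = 4.87e-07) from a liver mean of 0.735 to 13.2 scaled TPM. Itga6 was above 0 in 5 livers, so it needed tumors to pass the filter and its direction is no separate result. Lrp1, an endocytic receptor, fell by 0.99 ± 0.26 (SE; limma adjusted p = 0.00906). Ptn (pleiotrophin), the only relative of Mdk, was above 0 in 1 tumor, and Alk in no sample. Ptprz1, a phosphatase receptor known from the nervous system, is listed at scaled means of 13855 in tumors and 5857 in livers, with the highest value, 101162, in tumor 2; the log2 difference was 0.31 ± 0.66 (SE; adjusted p = 0.806), and what these reads are was not tested. Of 10 osteopontin receptors, 9 were tested. Itgb1 (0.58) and Itgav (0.43) rose and Itga5 fell by 0.58, while Cd44 had 0.06 ± 0.40 (SE; adjusted p = 0.939) at a mean of 3.20 scaled TPM in tumors.

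Genes around Lin28 are given beside the same shares of all genes. Of 22 listed genes 17 were tested, 2 rose and 1 fell, with a median of -0.05. The 2 that rose were let-7 targets of the cell cycle and growth, Mycn by 1.57 ± 0.20 (SE; limma adjusted p = 1.06e-05) and Ccnd1 by 1.83 ± 0.49 (SE; adjusted p = 0.0107). Mycn was above every liver in all 12 tumors, whereas liver values of Ccnd1 ran from 1.88 to 80.6 scaled TPM and overlapped those of tumors. Liver values of Mycn ran from 0 to 2.01, so it needed tumors to pass the filter and its direction is no separate result. Nr6a1, a nuclear receptor of embryonic cells, fell by 0.96. Lin28a, Trim71 and Hmga2, all fetal genes of the same circuit, are listed at 0 in all samples, and Dicer1, Drosha, Tut4, Tut7 and Dis3l2, which process or degrade let-7 precursors, had log2 differences between -0.26 and 0.35 with adjusted p of 0.251 or more.

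**Figure D4:**
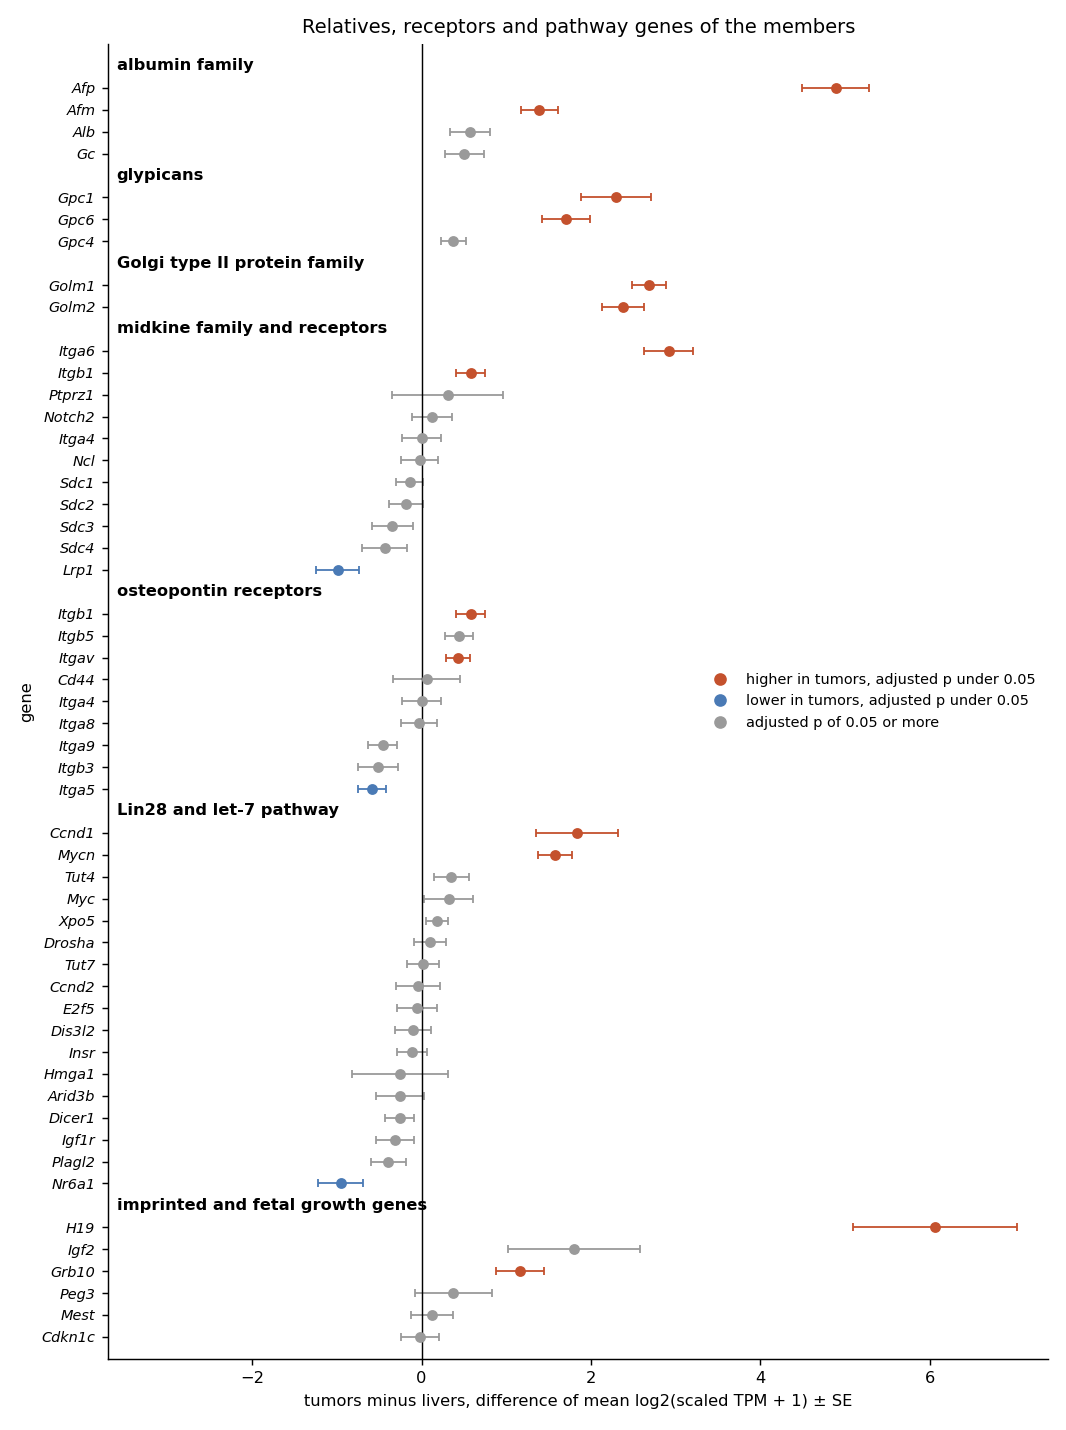
Difference between tumors and livers, in mean log2 of scaled TPM plus 1 with its SE, for the tested relatives, receptors and pathway genes of the members, grouped by list; orange marks genes higher and blue genes lower in tumors at an adjusted p under 0.05, and Gpc3 is left out because all livers are at 0. H19 (6.06), Afp (4.89), Itga6 (2.92) and Golm1 (2.69) lie farthest to the right, and Lrp1 (-0.99) farthest to the left.

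Imprinted fetal growth genes were set beside Peg10, itself imprinted. H19, a long noncoding RNA, rose by 6.06 ± 0.96 (SE; limma adjusted p = 1.47e-04) and ran from 1.45 to 1869 scaled TPM in tumors, against 1 liver above 0 at 0.732. With livers this low, H19 passed the filter through tumors and its direction is no separate result. Grb10, an adaptor of growth factor receptors, rose by 1.16 ± 0.28 (SE; adjusted p = 0.00631). Its lowest liver stood at 0.732 scaled TPM, so Grb10 also needed tumors to pass. Igf2, whose messenger RNA the IGF2BP proteins bind, reached 103 scaled TPM in 1 tumor but had a tumor median of 1.14 (log2 difference 1.80 ± 0.78 SE, adjusted p = 0.118). The neighbors of Peg10 at its imprinted locus, Sgce, Ppp1r9a and Casd1, had adjusted p of 0.302 or more.

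Transcription factors known to act on Afp were compared because repressors keep the gene silent in the adult liver. Of 22 listed genes, Afp itself among them, 21 were tested, and 5 with Afp rose and 2 fell, with a median of -0.22. Among all genes tested, 9.77% rose and 9.28% fell. Zhx2 and Zbtb20, repressors of Afp after birth, had log2 differences of -0.07 ± 0.15 (SE; limma adjusted p = 0.804) and -0.71 ± 0.34 (SE; adjusted p = 0.159). Tead4, a DNA-binding partner of YAP and TAZ, rose by 1.16 ± 0.37 (SE; adjusted p = 0.0294) from very low levels, above 0 in 1 liver, so it passed the filter through tumors. Trp53 (0.55) and Wwtr1, which encodes TAZ (0.54), rose less, and Nfia and Foxa1 fell by 0.54 and 0.53. Hnf4a, a hepatocyte factor, had -0.10 (adjusted p = 0.735).

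The genes whose levels followed each member most closely across the 12 tumors were listed as a description, over 8288 genes searched. For Afp these were S100a6, a calcium-binding protein (r = 0.95), Slc48a1, a heme transporter (0.94), and Plaat3, a phospholipase (0.92), and each stayed at 0.89 or more without tumor 2. S100a6 ran from 0 to 39.2 scaled TPM in tumors and was at most 2.23 in livers. For Gpc3 the nearest were Dolpp1 (0.82), Yipf2 (0.81) and Hexa, a lysosomal hexosaminidase (0.81). Golm1 was followed by Etfrf1 (0.96), Nsa2 (0.95) and Ndufb3, a subunit of respiratory complex I (0.94), and Spp1 by Clu, which encodes the secreted chaperone clusterin (0.84), Klhl2 (0.82) and Angptl8 (0.81). The points share libraries and scaling factors, so these coefficients carry no test.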

How the data were processed

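Poly-A RNA of 6 non-tumoral livers and 12 tumors was sequenced paired end. The authors used GRCm38 for alignment and Salmon for quantification, and expressed the values as TPM (the processing notes also name edgeR, which was not used here). The deposited values, called raw counts in the study, are a score in whole numbers that was read as rounded TPM, since no sample's total exceeds 907513 and the values the study lists as TPM equal them after rounding. Of 28442 genes, 12874 are at 0 in every sample, and 8 lines with an extra separator were read accordingly. Samples were grouped by their labels, and columns were matched through the mouse numbers. For 2 tumors these numbers differ between the labels and the study's table, and tumor number and tag decided.

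The members and lists were chosen with earlier results of these data known. Each sample was scaled by the trimmed mean of M method, with 30% of M and 5% of A trimmed, genes with at least 1 scaled TPM in at least 6 samples were kept (in subsets of samples, in as many as the smaller group holds), and log2(value + 1) was modelled in limma 3.58.1 (R 4.3.3), with a prior variance that follows the mean. P-values were adjusted by Benjamini-Hochberg over all genes tested, at 0.05. Correlations, exact permutation tests and figures used Python 3.11.15, numpy 2.4.6, scipy 1.17.1, pandas 2.3.3 and matplotlib 3.10.9. The p-values measure spread between samples, and tumors 11 and 12 share a mouse. Both scripts were tested on simulated data. Alternatives covered scaling, filter, pseudocount, prior variance, tag, age, replicate number, quality weights and each sample left out. The 3 tumors that stand apart in proliferation were left out as an alternative chosen after seeing the data.

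Named genes are the members, of each list at most the 4 called genes with the largest difference in each direction and the markers near 0, and the 3 genes most like each member, without symbols of predicted genes. Of the genes that met this rule, 1 is not reported here. Genes named beside these, such as Met, Siglece, Naa35, Ptprz1 and uncalled receptors and factors, were chosen after their values were seen. Positions and promoters are RefSeq's on GRCm38.p6, and shared exons are from GENCODE on the same build.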

Additional observations from a re-analysis of the deposited data

Results flagged for a closer look

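Of 8 sets of 6 liver values examined (deposited and scaled values of the members above 0 in any liver), 5 held a sample whose gap to the next exceeded 0.625 of the whole range, the limit for 6 samples. In all 5 that sample was liver 1. For Afp liver 1 held 3 TPM (2.20 scaled), and the remaining 5 livers are listed at 0, a gap of 1 on both scales. For Igf2bp2 it held 1 TPM (0.732 scaled) against 0 elsewhere, again a gap of 1 on both scales. Golm1 was at 4 TPM in liver 1, with 2 as the next value, a gap of 0.667. For continuous values chance gives such a gap in about 1 in 20 sets, but 4 of these sets hold 5 values of 0 and 1 value above it, where the gap is always 1, and deposited and scaled values are not separate sets. Gaps between whole numbers this low amount to 1 to 3 rounded TPM. Without liver 1 the 4 members Afp, Gpc3, Golm1 and Spp1 were again called higher in tumors.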

How the results depend on the processing

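Afp, Gpc3, Golm1 and Spp1 were higher in tumors under all 33 settings, while the number of all genes called, 2230 as reported, was 1341 without scaling, 3207 without tumor 2, 4702 with sample quality weights, 1359 with the replicate block, 1540 in E19 and 538 in E20 samples. Leaving out other samples gave 1712 to 2538. The median log2 difference of all genes was -0.06 with and -0.18 without scaling. Members with every tumor above every liver numbered 4, and 2 without scaling. Pairs correlated across tumors numbered 0 to 1 with each tumor left out, 1 of them without tumor 2. Of relations with marker scores 2 passed, 5 without scaling, 1 without tumor 2 and 0 with values centered within tags. The relation of Afp with endothelial markers turned from -0.81 to 0.29 without scaling. Correlations that missed the threshold also turned: Afp and Golm1 from 0.16 to -0.23 centered within tags, -0.69 in E19 tumors and -0.19 without tumor 2 (-0.19 to 0.50 with each tumor left out), Afp and Spp1 from -0.21 to 0.21 without scaling, 0.035 by ranks and 0.0397 without tumor 10 (-0.30 to 0.0397 with each left out), and Gpc3 and Golm1 from -0.43 to 0.15 without scaling. Of 244 single values recomputed, 230 kept direction and call (1 of these a rank correlation of 0), 5 lost the call, 1 gained it and 8 turned. The cause was not tested.

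Replicate numbers were not taken to pair the samples, since not every same-numbered liver and tumor deviated together: 4 of 6 correlations were over 0.1 (range -0.14 to 0.43), their mean was 0.17 against -0.04 between different numbers, and 3 of 6 livers matched best with their own number. The block over livers and tumors 1 to 6 called 1359 genes and 4 members, against 1212 genes and 4 members in the same 12 samples without the replicate block. Whole-number TPM limit what can be said of the 6 members at 2 TPM or below.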
